A study of Bos taurus with 9 samples.

Results

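The bovine major histocompatibility complex (MHC) was examined as a pair of windows on chromosome 23 of the UMD3.1 assembly of the cattle genome, one over the class IIb part (6900000 to 7700000, 0.8 Mb) and one over the class IIa, III and I parts (25000000 to 32000000, 7 Mb, called IIa-III-I). A peak belonged to a window when its midpoint lay inside it, so peak width did not enter membership. The windows themselves were chosen with earlier results of these data known. By this rule 722 peaks were members, 116 in the class IIb window and 606 in the IIa-III-I window, out of 2895 on chromosome 23 and 86291 in all 8 peak lists. The remaining 2173 peaks of chromosome 23 lay over 44.7 Mb and served as the reference.

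The lists came from chromatin immunoprecipitation sequencing (ChIP-seq) of rumen, the first forestomach of cattle, from Holstein animals, in which DNA bound by an antibody's target is sequenced and stretches enriched over input DNA are called as peaks. The 2 conditions were control rumen and rumen after 24 h of butyrate, which was given by infusion and followed by biopsy, and each was profiled with 4 antibodies, against H3K27ac, H3K9ac, RNA polymerase II (RNA pol II) and H3K9me3. The study describes the tissues as taken before and after butyrate, so time of sampling and butyrate cannot be told apart. Whether the same animals gave both was not given in the sources used here. Every antibody and condition was 1 library, and how many animals gave the tissue was not given in the sources used here, so no test between conditions was possible and the 95% intervals below cover counting error of peaks only. All lists were called against the same input library. Rumen tissue is a mixture of cell types, and fewer cells with a mark and less of it per cell cannot be told apart. The lists hold no expression values, so the labelled tissue was not checked against marker genes. For H3K27ac and H3K9ac the control library was run on lane 1 and the butyrate library on lane 3, and for H3K9me3 on lanes 3 and 4, so lane and condition cannot be told apart for these antibodies, while both RNA pol II libraries were on lane 3.

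MHC class I molecules display peptides from inside the cell to cytotoxic T cells, and class II molecules display peptides taken up from outside to helper T cells. In ruminants an inversion separated the class II genes into a IIa part, with the classical DR and DQ genes, and a distant IIb part, with the non-classical DM and DO genes and the antigen-processing genes TAP1, TAP2, PSMB8 and PSMB9. The class III part between class II and class I holds complement, heat shock and tumour necrosis factor genes. H3K27ac and H3K9ac are histone acetylations found at active promoters and enhancers, H3K9me3 marks silenced chromatin, RNA pol II transcribes genes, and butyrate, a fermentation product of the rumen, inhibits histone deacetylases.

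In the RefSeq gene table of a later assembly, ARS-UCD2.0, which was used for names and neighbour order alone, all 12 class IIb genes looked for were listed on chromosome 23, in the order DSB, BOLA-DYA, BOLA-DYB, BOLA-DOB, TAP2, PSMB8, TAP1, PSMB9, BOLA-DMB, BOLA-DMA, BRD2 and BOLA-DOA. Further along, 5 of 6 class IIa genes (from BOLA-DQA2 to BOLA-DRA), 17 of 17 class III genes (from NOTCH4 to DDX39B) and 12 of 14 class I region genes (from POU5F1 to GABBR1) followed in turn. After GABBR1 came 60 protein-coding genes up to TRIM27, of which 51 carried olfactory receptor names, and then 103 up to TRIM38, of which 50 carried histone names, 15 olfactory receptor names and 12 zinc finger names. Because that assembly differs from the one of the peaks, no peak was assigned to a gene.

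H3K27ac peaks were the bulk of the members, with 307 in control and 290 after butyrate. In the class IIb window 52 control and 49 butyrate peaks gave densities of 65 per Mb (exact Poisson 95% interval 48.5 to 85.2) and 61.3 per Mb (45.3 to 81.0). The IIa-III-I window held 255 and 241 peaks, or 36.4 per Mb (32.1 to 41.2) and 34.4 per Mb (30.2 to 39.1), against 22.2 and 19.7 per Mb on the rest of the chromosome. The class IIb density was therefore 2.93 times (conditional exact binomial 95% interval 2.17 to 3.87) that of the rest of the chromosome in control and 3.12 times (2.29 to 4.16) after butyrate, and the IIa-III-I density 1.64 times (1.43 to 1.89) and 1.75 times (1.51 to 2.02). The reference was an average over uneven stretches. Outside the windows 7 bins of 1 Mb held at least 50 control H3K27ac peaks, 69.9 per Mb together, where the median bin of the chromosome had 12. The intervals treat peaks as independent and take no account of such clustering. The density ratios also depended on the limits and the reference. With each limit moved outwards by 500 kb the class IIb ratio was 1.64 (1.26 to 2.11) in control and 1.76 (1.34 to 2.28) after butyrate, and against chromosomes 1 to 29 without the windows it was 4.43 and 4.72, with 2.49 and 2.65 for IIa-III-I.

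H3K9ac peaks were fewer, and their density in the IIa-III-I window was above that of the rest of the chromosome in control, while after butyrate this depended on the peaks counted. The window held 30 control and 29 butyrate peaks, or 4.29 and 4.14 per Mb against 2.17 and 2.31 on the rest of the chromosome, a ratio of 1.97 (1.26 to 3.0) in control and 1.80 (1.15 to 2.74) after butyrate. For butyrate the ratio was 1.47 (0.890 to 2.33) with peaks within 1 kb merged and 1.60 (0.533 to 4.01) with peaks of at least 300 bp, and both intervals included 1. By comparison the class IIb window held 5 peaks in either condition, and its ratios of 2.88 (0.914 to 6.95) and 2.71 (0.862 to 6.53) had intervals that included 1.

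RNA pol II peaks numbered 1 in control and 4 after butyrate in the class IIb window, and 4 and 8 in the IIa-III-I window. In the IIa-III-I window the density was 1.82 times that of the rest of the chromosome in control (0.437 to 5.81) and 1.65 times after butyrate (0.654 to 3.66), with intervals that included 1. In class IIb the ratio was 3.99 (0.0943 to 26.2) from the single control peak and 7.20 (1.85 to 20.4) from the 4 butyrate peaks. The ratio over both windows, 2.05 (0.577 to 6.01) in control and 2.22 (1.04 to 4.44) after butyrate, thus exceeded 1 beyond its interval after butyrate through those 4 peaks. Among them the peaks that began at 7236759 and 7239316 stood near each other. The RNA pol II ratios of class IIb and of both windows were not recomputed under any alternative.

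H3K9me3 had no peak in the class IIb window in either condition, and the exact Poisson interval of 0 peaks in 0.8 Mb reached 4.61 per Mb. In the IIa-III-I window 22 control and 17 butyrate peaks gave 3.14 per Mb (1.97 to 4.76) and 2.43 per Mb (1.41 to 3.89), against 0.694 and 0.627 on the rest of the chromosome. With peaks of at least 300 bp the ratio was 7.98 (2.83 to 23.3) in control and 3.19 (0.516 to 14.9) after butyrate, where 3 peaks were left and the interval included 1. With all peaks it was 4.53 (2.5 to 8.08) in control and 3.87 (1.99 to 7.33) after butyrate, so windows that cover 14.9% of the chromosome's span held 41.5% and 37.8% of its H3K9me3 peaks.

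**Figure D1:**
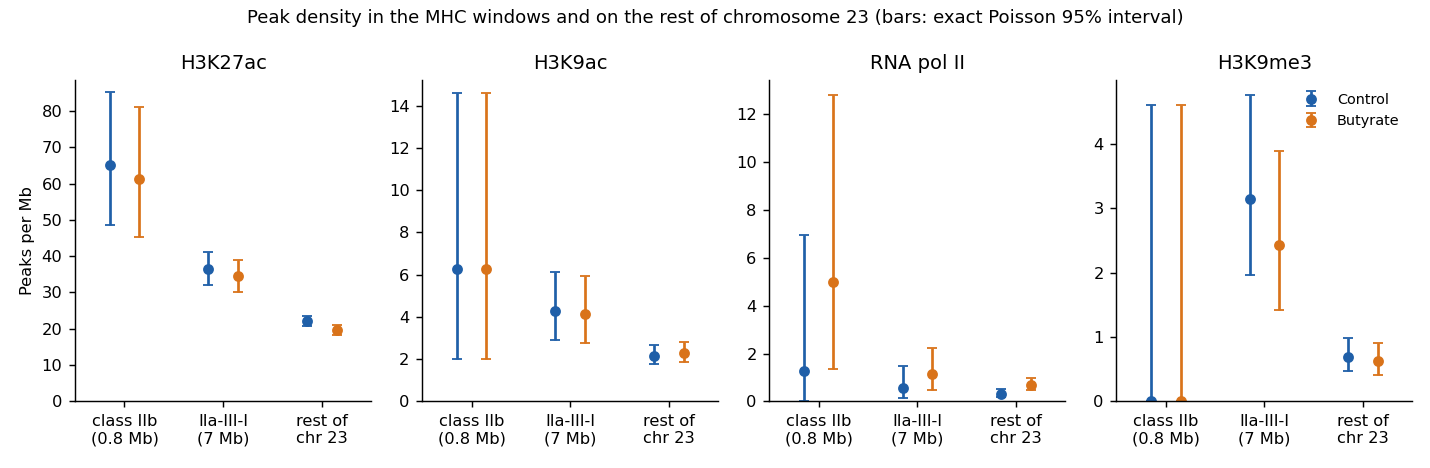
Peaks per Mb (vertical axes, a scale for each antibody) in the class IIb window, the IIa-III-I window and the rest of chromosome 23, in control (blue) and after butyrate (orange); bars are exact Poisson 95% intervals on 1 library each. H3K27ac ran from 65 per Mb in class IIb to 22.2 on the rest of the chromosome in control, and H3K9me3 from 3.14 per Mb in the IIa-III-I window to 0.694.

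The plot of densities shows H3K27ac decreasing from class IIb through IIa-III-I to the rest of the chromosome, with H3K9me3 following another order. The control and butyrate intervals overlap at every position of each panel.

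Peak numbers in the windows differed little between conditions relative to counting error. The log2 ratio of butyrate to control numbers over both windows was -0.082 (-0.32 to 0.15) for H3K27ac, beside -0.17 (-0.31 to -0.042) on the rest of chromosome 23 and -0.17 on chromosomes 1 to 29 without the windows. For H3K9ac it was -0.042 (-0.77 to 0.68) in the windows and 0.087 (-0.33 to 0.50) on the rest of the chromosome. RNA pol II had 5 control and 12 butyrate peaks, a log2 ratio of 1.26 (-0.35 to 3.12), and the rest of the chromosome, with 14 and 31 peaks, had 1.15 (0.19 to 2.17). H3K9me3 had 22 and 17, a log2 ratio of -0.37 (-1.38 to 0.61), where the rest of the chromosome had -0.15 (-0.94 to 0.64) and chromosomes 1 to 29 without the windows had 0.16 (0.060 to 0.26). With peaks of at least 300 bp alone the H3K9me3 log2 ratio in IIa-III-I was -1.74 (-4.24 to 0.22). The windows' intervals for H3K27ac, H3K9ac, RNA pol II and H3K9me3 all included 0 and each overlapped the interval of the rest of the chromosome.

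Within the IIa-III-I window the peaks were unevenly placed. By consecutive bins of 1 Mb from 25000001, control H3K27ac peaks numbered 6, 2, 108, 76, 7, 15 and 41, and butyrate peaks 6, 2, 90, 71, 9, 16 and 47, where the median bin of chromosome 23 had 12 and 11. The bin from 27000001 to 28000000 ranked first of the 53 bins of the chromosome in both H3K27ac lists and in both H3K9ac lists, with 11 control and 13 butyrate H3K9ac peaks. Its H3K27ac log2 ratio of butyrate to control was -0.26 (-0.68 to 0.15), an interval that included 0. The bin from 28000001 to 29000000 ranked second in both H3K9ac lists, with 10 peaks in either condition, and first in the butyrate RNA pol II list with 7 peaks, where control had 2.

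H3K9me3 peaks lay mostly in the later bins of the window. In the same order control numbers were 1, 1, 0, 1, 6, 9 and 4, and butyrate numbers 1, 1, 0, 2, 4, 8 and 1. The bin from 30000001 to 31000000 ranked first of the 53 bins and the one before it second in both H3K9me3 lists. The 1 Mb with most acetylation had no H3K9me3 peak in either condition. This was common, since 29 of the 53 bins in control and 27 after butyrate had none. The 1 Mb with most H3K9me3 held 15 control and 16 butyrate H3K27ac peaks, where the median bin had 12 and 11.

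At 250 kb resolution the 3 densest bins by H3K27ac were 28000001 to 28250000, with 58 control and 54 butyrate peaks, 27250001 to 27500000, with 43 and 44, and 27000001 to 27250000, with 40 and 27. These 0.75 Mb of the 7 Mb held 141 of 255 control and 125 of 241 butyrate H3K27ac peaks, 17 of 30 and 19 of 29 H3K9ac peaks, and none of the 22 and 17 H3K9me3 peaks. Another 10 of the 28 bins had no H3K27ac peak in either list. Those 10 bins held no H3K9ac peak, 1 butyrate RNA pol II peak, and 8 of 22 control and 4 of 17 butyrate H3K9me3 peaks.

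The longest stretch without a peak in any list ran from 25704967 to 26554875, 849909 bp, at the start of the IIa-III-I window. It lay within a longer stretch free of both acetylations, 25242253 to 26996367 (1754115 bp), in which 2 control and 1 butyrate H3K9me3 peaks were called. In the class IIb window the longest stretch without any peak was 143986 bp, from 6942612 to 7086597. Reads had been kept only where they aligned uniquely, and which bases of these stretches could take unique reads was not analysed here.

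**Figure D2:**
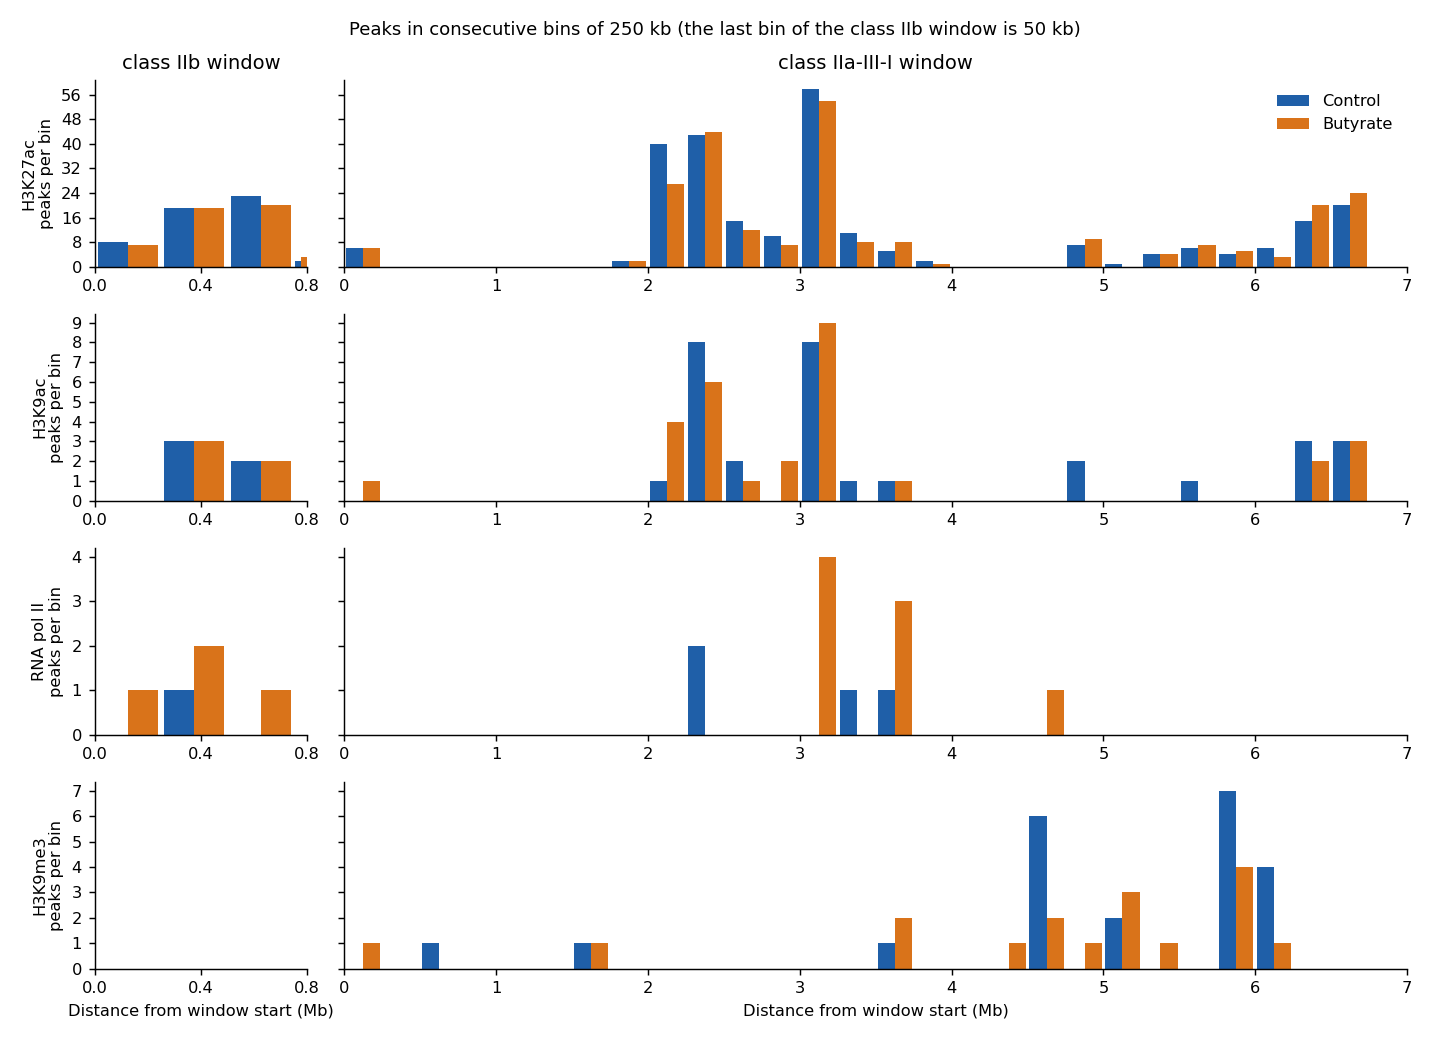
Peaks per bin of 250 kb (vertical axes) along the class IIb window (left) and the IIa-III-I window (right), by distance from the window start in Mb, with a row of panels for each antibody and bars for control (blue) and butyrate (orange). In the right column the highest acetylation bars stand between 2 and 3.25 Mb, with 58 control H3K27ac peaks in the highest bin, and most H3K9me3 bars stand beyond 4 Mb.

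The bin plot shows H3K27ac peaks of both conditions in every bin that had any, apart from 1 bin with a single control peak. RNA pol II peaks of both conditions shared 2 bins.

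H3K27ac peaks of the windows were somewhat wider than those of the rest of the chromosome. The median width was 319 bp in control and 306.5 bp after butyrate, against 285 and 292 bp. Peaks wider than 500 bp were 68 of 307 in control, 22.1% (Wilson 95% interval 17.9 to 27.1), against 15.4% (13.3 to 17.8) on the rest, and 61 of 290 after butyrate, 21.0% (16.7 to 26.1), against 14.7% (12.5 to 17.2), where the butyrate intervals overlapped. By window the medians were 338 and 318 bp in class IIb and 315 and 306 bp in IIa-III-I.

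The widest control H3K27ac peak of class IIb was 2655 bp (7235728 to 7238382) and the widest butyrate one 2078 bp (7412989 to 7415066), whereas the widest on the rest of chromosome 23 were 1474 and 1396 bp. In the IIa-III-I window the widest were 1891 bp in control and 1708 bp after butyrate, and both peaks began at 28127641. The 183 pairs of H3K27ac peaks matched to a single partner in the other condition had no common direction in width, with 86 wider and 94 narrower after butyrate and a median log2 ratio of -0.029.

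Among the less frequent antibodies the median H3K9ac widths in the windows were 259 bp (control) and 247.5 bp (butyrate). The rest of chromosome 23 had 253 and 232 bp. RNA pol II medians were 307 bp from 5 control peaks and 225 bp from 12 butyrate peaks, against 208 and 222 bp on the rest. H3K9me3 peaks had 270 and 224 bp, against 231 and 241 bp. The widest H3K9ac peaks were 491 bp in control (27733468 to 27733958) and 617 bp after butyrate (7413316 to 7413932). The widest H3K9me3 peaks, 664 bp in control (30914474 to 30915137) and 944 bp after butyrate (30914025 to 30914968), overlapped each other. The next widest, 631 bp in control (28584458 to 28585088) and 669 bp after butyrate (28584653 to 28585321), overlapped each other as well. The peak that followed was 472 bp in control (29728845 to 29729316) and 525 bp after butyrate (30915050 to 30915574), the latter close beside the widest one.

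A peak was counted as found in the other condition when it overlapped a peak of the same antibody there by at least 1 bp. Of the control H3K27ac peaks in the windows 218 of 307 were found after butyrate, 71.0% (65.7 to 75.8), where the whole control list had 59.9% and the rest of chromosome 23 had 59.1% (56.0 to 62.2). In the other direction 220 of 290 were found, 75.9% (70.6 to 80.4), where the whole butyrate list had 68.1% and the rest of the chromosome 67.1% (63.9 to 70.1). The control shares were alike in both windows, 71.2% in class IIb and 71.0% in IIa-III-I, and the butyrate shares were 81.6% (68.6 to 90.0) and 74.7% (68.8 to 79.8).

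Width went with being found in both conditions. In control the share ran from 33.3% (8 of 24) at the smallest width of 200 bp through 62.7% (74 of 118) at over 200 to 300 bp and 73.2% (71 of 97) at over 300 to 500 bp and to 95.6% (65 of 68) over 500 bp. The rest of the chromosome had 30.4%, 46.0%, 70.2% and 92.2% in the same classes. In control the windows and the rest stood furthest apart at over 200 to 300 bp, where the intervals were 53.7 to 70.9 and 41.3 to 50.7, and after butyrate that class had 62.3% (53.4 to 70.4) against 55.7% (50.8 to 60.4).

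**Figure D3:**
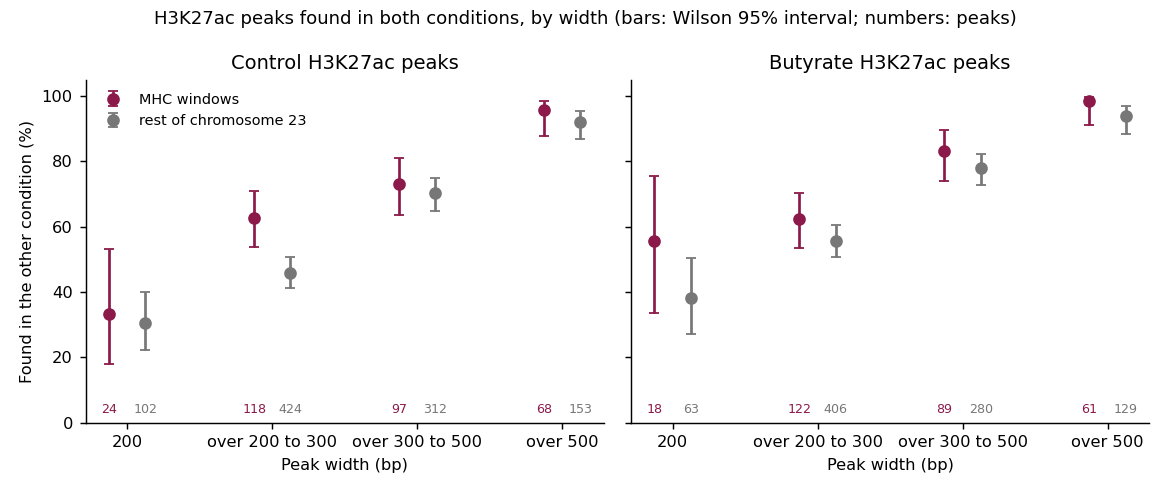
Percent of H3K27ac peaks found in the other condition (vertical axis) by peak width in bp (horizontal axis), for control peaks (left) and butyrate peaks (right), in the MHC windows (dark red) and on the rest of chromosome 23 (grey); bars are Wilson 95% intervals and the small numbers are peaks per class. Shares increase with width in both panels, in control from 33.3% at 200 bp to 95.6% over 500 bp in the windows.

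The plot by width shows intervals of the windows and the rest that overlap in every class other than control peaks of over 200 to 300 bp.

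In a comparison chosen after the values were seen, the bins from 27 to 29 Mb, with 108 and 76 control H3K27ac peaks, were set beside the 7 other 1 Mb bins of chromosome 23 outside the windows that held at least 50, with 60 to 87 each. The share of control peaks found after butyrate was 67.9% (60.9 to 74.3) in the former and 64.2% (59.9 to 68.3) in the latter, and of butyrate peaks found in control 76.4% (69.3 to 82.3) and 73.5% (69.1 to 77.5). Median control widths in these bins were 303 and 305 bp. The intervals of the bins from 27 to 29 Mb thus overlapped those of the 7 other bins. The densities were not matched, with 92 control and 80.5 butyrate peaks per Mb at 27 to 29 Mb against 69.9 and 60.4. Within the windows the less dense bin from 31 to 32 Mb, with 41 control and 47 butyrate H3K27ac peaks, had shares of 78.0% (63.3 to 88.0) and 70.2% (56.0 to 81.3), whose intervals overlapped those at 27 to 29 Mb. The part of density in the higher shares of the windows was not tested.

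The other antibodies had fewer peaks in common between conditions. For H3K9ac 11 of 35 control peaks (31.4%, whole list 32.9%) and 11 of 34 butyrate peaks (32.4%, whole list 31.1%) were found in the other condition. For RNA pol II it was 1 of 5 (whole list 20.7%) and 1 of 12 (whole list 11.5%), and for H3K9me3 7 of 22 (whole list 28.9%) and 7 of 17 (whole list 26.4%). None of these shares departed from its whole list by more than its Wilson interval.

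H3K9ac peaks of the windows lay on H3K27ac. All 35 control H3K9ac peaks (100%, interval 90.1 to 100) overlapped a control H3K27ac peak, where the whole list had 86% and the rest of chromosome 23 had 80.4% (71.4 to 87.1). After butyrate 29 of 34 did (85.3%, 69.9 to 93.6), where the whole list had 83% and the rest 78.6%. The 5 that did not were all in the IIa-III-I window, within 318 bp of a butyrate H3K27ac peak, and on H3K27ac peaks of control.

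Where an H3K9ac peak was called in 1 condition only, H3K27ac of the other condition was mostly called there. Of the 24 control H3K9ac peaks not found after butyrate 21 overlapped a butyrate H3K27ac peak, and all 23 butyrate H3K9ac peaks not found in control overlapped a control H3K27ac peak. On the rest of chromosome 23 this held for 59 of 73 control and 59 of 79 butyrate peaks. Most such H3K9ac peaks outside the windows thus lay on H3K27ac of the other condition too. In the reverse view 33 of 307 control H3K27ac peaks (10.7%, whole list 9.26%) and 27 of 290 butyrate ones (whole list 10.6%) carried H3K9ac. They had a median width of 541 bp in control and 496 bp after butyrate, against 298 and 297 bp for those without, where the rest of the chromosome had 470 and 461 bp against 274 and 283 bp. They were found in the other condition in 30 of 33 and 27 of 27 cases, against 188 of 274 and 193 of 263 without H3K9ac. The contrast was alike on the rest of the chromosome, with 69 of 77 and 72 of 80 against 517 of 914 and 517 of 798.

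H3K9me3 and H3K27ac peaks did not overlap in the windows, with 0 of 22 control and 0 of 17 butyrate H3K9me3 peaks on H3K27ac of the same condition. The rest of chromosome 23 had 2 of 31 and 3 of 28, and the whole lists had 4.82% and 3.91%. Of the 2242 and 2430 peaks of the whole lists, 1514 and 1693 lay on chromosomes 1 to 29 outside the windows. At these numbers the Wilson intervals reached 14.9% and 18.4%, so the windows could not be told from the whole lists or the rest of the chromosome. The median distance from an H3K9me3 peak to the nearest H3K27ac peak was 48.6 kb in control and 65.7 kb after butyrate, beside 54.8 and 37.3 kb on the rest of chromosome 23, and the closest stood 4336 and 10686 bp away.

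RNA pol II peaks of the windows lay on H3K27ac in 4 of 5 control cases (80.0%, 37.6 to 96.4), where the whole list had 31.3% and the rest of chromosome 23 had 11 of 14. After butyrate it was 7 of 12 (58.3%, 31.95 to 80.7), where the whole list had 29% and the rest of the chromosome 14 of 31 (45.2%, 29.2 to 62.2). Control RNA pol II lay on H3K9ac in 2 of 5 cases (whole list 12.2%, rest of chromosome 23 3 of 14) and on H3K9me3 in 0 of 5 (whole list 24.7%, rest 2 of 14). After butyrate 1 of 12 lay on H3K9ac (whole list 12.2%, rest 5 of 31) and 2 of 12 on H3K9me3 (whole list 17.6%, rest 4 of 31).

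The control RNA pol II peak of class IIb, 7239302 to 7239512 (211 bp), was the one found again after butyrate, at 7239316 to 7239515 (200 bp), and H3K27ac was called there in both conditions. The other class IIb peaks after butyrate were 6917709 to 6917934, 7236759 to 7236974 and 7534840 to 7535132, each over H3K27ac of both conditions. In the IIa-III-I window control RNA pol II was called at 27331813 to 27332220, 27333446 to 27333672, 28273966 to 28274272 and 28531368 to 28531676. The first 3 of these lay over H3K27ac of both conditions, and the last overlapped no peak of any other list.

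After butyrate 4 of the 8 RNA pol II peaks of the IIa-III-I window lay between 28088435 and 28179715. They were 28088435 to 28088727, 28177058 to 28177311, 28178535 to 28178734 and 28179439 to 28179715, and H3K27ac of both conditions overlapped all of them but 28178535 to 28178734. A further pair, 28583415 to 28583638 and 28584458 to 28584679, overlapped H3K9me3 after butyrate, and the second of these began at the same base as the control H3K9me3 peak of 631 bp. The last 2, 28679811 to 28680010 and 29711299 to 29711570, overlapped no other list.

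Peaks of the 8 lists that overlapped were merged into 399 regions in the windows, of which 179 had a peak in 1 list, 168 in 2, 39 in 3, 10 in 4 and 3 in 5. The share in 1 list was 44.9% (40.1 to 49.8), where all chromosomes together had 56% and the rest of chromosome 23 had 55.1% (52.4 to 57.8). The share in 4 or more lists was 3.26% (1.91 to 5.49), where all chromosomes together had 3.11% and the rest had 2.48% (1.77 to 3.46). With peaks of at least 300 bp alone it was 1.89% in the windows. The most frequent combination was H3K27ac in both conditions without another antibody, in 155 regions, followed by control H3K27ac alone in 81 and butyrate H3K27ac alone in 70. H3K9me3 of both conditions made up 5 regions, of control alone 15 and of butyrate alone 9.

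**Figure D4:**
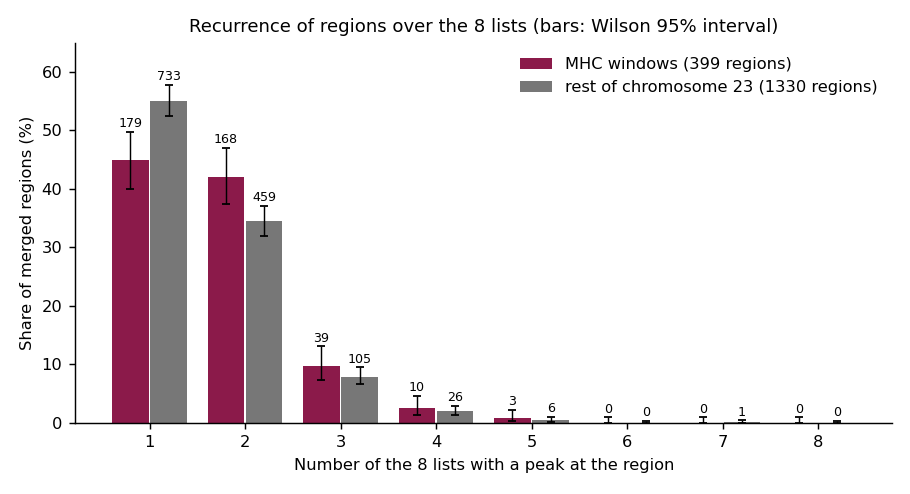
Share of merged regions in percent (vertical axis) by how many of the 8 lists had a peak there (horizontal axis), in the MHC windows (399 regions, dark red) and on the rest of chromosome 23 (1330 regions, grey); bars carry Wilson 95% intervals and the number of regions. In the windows 44.9% of the regions were in 1 list, against 55.1% on the rest of the chromosome.

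The plot of recurrence shows fewer regions of 1 list and more of 2 lists in the windows, and intervals that overlap from 3 lists upwards.

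The region with most lists in class IIb was 7235713 to 7238610 (2898 bp, 5 lists). Control H3K27ac covered it as 1 peak of 2655 bp, and butyrate H3K27ac as 2 peaks of 846 and 1902 bp, 7235713 to 7236558 and 7236709 to 7238610. It held 2 control H3K9ac peaks of 225 and 200 bp, 1 butyrate H3K9ac peak of 350 bp, and the butyrate RNA pol II peak of 216 bp at 7236759. The region at 7239302 to 7239798 with RNA pol II in both conditions was its neighbour. The other class IIb region of 4 lists, 7412989 to 7415066, had 1 H3K27ac peak in either condition (1880 and 2078 bp), 1 control H3K9ac peak of 323 bp and 2 butyrate ones of 617 and 434 bp.

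In the IIa-III-I window the regions of 5 lists were neighbours, 27331722 to 27332242 (521 bp) and 27332858 to 27333741 (884 bp). Both held H3K27ac and H3K9ac of both conditions and RNA pol II of control. In the former the H3K27ac peaks were nearly equal, 521 bp in control and 496 bp after butyrate, and both ended at 27332242. In the latter the butyrate H3K27ac peak was 520 bp against 884 bp in control.

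Both acetylations in both conditions, without another antibody, were found in 7 regions of 4 lists in the IIa-III-I window. The 6 widest of them were 28113585 to 28114501, 28127641 to 28129531, 27438068 to 27439071, 31288981 to 31289735, 31614018 to 31615165 and 31636026 to 31636828. In the region of 1891 bp at 28127641 control had 2 H3K9ac peaks of 473 and 472 bp, and butyrate had 1 of 325 bp that overlapped the second of them. At 27438068 and 31636026 a single control H3K27ac peak (1003 and 746 bp) stood opposite 2 butyrate peaks (616 and 302 bp, and 260 and 440 bp). The region at 28179439 to 28179902 (464 bp) had H3K27ac of both conditions with H3K9ac and RNA pol II of butyrate alone.

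**Figure D5:**
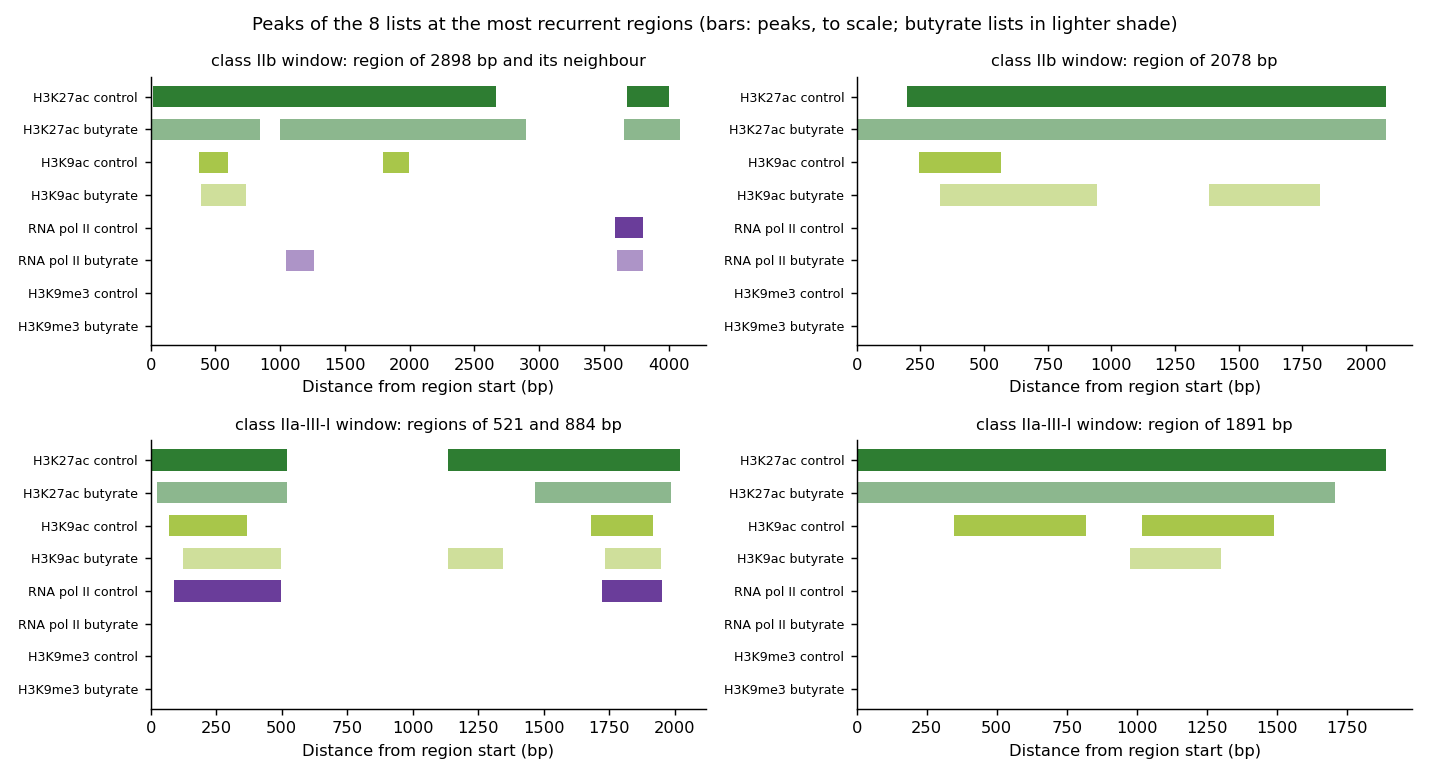
Peaks of the 8 lists (rows; control in full shade, butyrate in lighter shade) drawn to scale against distance from the region start in bp, for the class IIb regions of 2898 bp with its neighbour and of 2078 bp, and the IIa-III-I regions of 521 and 884 bp and of 1891 bp. Acetylation peaks of the conditions lie over each other in all 4 panels, and no H3K9me3 peak was called in any.

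The maps show narrow H3K9ac and RNA pol II peaks lying mostly inside wider H3K27ac peaks at these regions.

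Of the 68 control and 61 butyrate H3K27ac peaks wider than 500 bp, 3 and 1 had no counterpart in the other condition. Most such peaks on the rest of chromosome 23 had a counterpart too, 141 of 153 in control (92.2%) and 121 of 129 after butyrate (93.8%). The widest control H3K27ac peak without a butyrate counterpart was 463 bp in class IIb (7547015 to 7547477) and 694 bp in IIa-III-I (27339628 to 27340321), and the widest butyrate ones without a control counterpart were 276 bp (7394645 to 7394920) and 571 bp (31489724 to 31490294). The control peaks stood 42 and 4994 bp from the nearest butyrate peak, and the last butyrate peak 431 bp from the nearest control peak. For H3K9ac the widest such peaks of the IIa-III-I window were 491 bp in control (27733468 to 27733958) and 481 bp after butyrate (27407772 to 27408252), and H3K27ac of both conditions overlapped each of them. In class IIb the corresponding H3K9ac peaks were 207 bp in control (7304937 to 7305143), over control H3K27ac, and 434 bp after butyrate (7414373 to 7414806), inside the region of 2078 bp. For H3K9me3 they were 428 bp in control (31066241 to 31066668) and 260 bp after butyrate (30820361 to 30820620), at a distance of 58833 and 71012 bp from the nearest H3K9me3 peak of the other condition.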

How the data were processed

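Per the labels, DNA from 8 ChIP libraries and 1 input library of Holstein rumen was sequenced at 75 nt per read. Per the submitters' processing notes the tools were Trim Galore 0.4.1, BWA and MACS2 on UMD3.1. The study's methods state that alignments had to be unique and to hold fewer than 2 mismatches, and that peaks were called at default settings against the input. The authors deposited each list as 3 columns, chromosome, start and end, with no height, score, depth or fold. These positions were read as 1-based with both ends included, and the smallest width was 200 bp in every list. Whether peaks called in 1 library alone lay near the calling threshold in the other cannot be seen from these lists and was not tested. The lists carry no sequencing depth, and the read totals that the study gives for its libraries were not used here, nor was the input library analysed.

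Peaks were assigned by midpoint with Python 3.11.15, pandas 2.3.3, numpy 2.4.6 and scipy 1.17.1, and figures were drawn with matplotlib 3.10.9. Densities have exact Poisson intervals, ratios of counts conditional exact binomial intervals and shares Wilson intervals, all at 95%. Chromosome 23 was taken to end at its last peak position, 52466774. The counting scripts were tested on simulated data. Named peaks were the widest of each list and window, the widest of 1 condition, the regions in most lists (the first 12 by number of lists and width, of 13 in 4 or more), every peak of lists with at most 10 in a window (otherwise the 3 widest), the densest bins and the longest empty stretches. Alternatives were a 300 bp minimum width, merging within 1 kb or 500 bp, other limits, membership by any overlap, an overlap of 50% of the shorter peak, and another reference. The windows and gene lists were chosen with earlier results of these data known.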

Additional observations from a re-analysis of the deposited data

Results flagged for a closer look

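In both windows the antibodies' peak numbers lay on different sides of equality between conditions, and this difference was not tested. In the class IIb window the log2 ratio of butyrate to control numbers was -0.086 for H3K27ac and 2 for RNA pol II, the latter from 1 control and 4 butyrate peaks. In the IIa-III-I window it was -0.081 for H3K27ac, -0.049 for H3K9ac and -0.37 for H3K9me3, against 1 for RNA pol II, from 4 control and 8 butyrate peaks. Each group was 1 library, and the counting intervals of all these ratios included 0.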

How the results depend on the processing

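No paired analysis was possible because there was 1 library in every group. Of 116 values recomputed under an alternative 102 stayed within the counting interval of the reported value and 14 moved beyond it. No ratio whose interval excluded equality crossed to the other side of it. The 102 is a lenient count. Counting every peak that touched a window gave back each reported value, and those entries are among the 102. Intervals were also wide where peaks were few, such as 0.437 to 5.81 for control RNA pol II density in IIa-III-I. For class IIb only H3K27ac ratios were recomputed. The H3K9ac log2 ratio of numbers in IIa-III-I, whose interval included 0, was -0.049 and became 0 with limits moved outwards by 500 kb. With chromosomes 1 to 29 without the windows as reference, the H3K27ac density ratio was 4.43 in control and 4.72 after butyrate in class IIb, and 2.49 and 2.65 in IIa-III-I. With limits moved outwards by 500 kb the class IIb ratios were 1.64 and 1.76. With peaks of at least 300 bp, in the IIa-III-I window the RNA pol II density ratio was 19.1 in control (3 peaks) and 0 after butyrate and the H3K9me3 log2 ratio of numbers was -1.74. In both windows with that minimum, the share found in the other condition was 0 for control RNA pol II (3 peaks) and 100% for butyrate H3K9me3 (3 peaks), and regions in 4 or more lists were 1.89%. Merging peaks within 1 kb gave 76.0% of control H3K27ac peaks found after butyrate. Merging lists within 500 bp gave 37.9% of regions in 1 list. Numbers of peaks depend on sequencing depth, which the lists do not carry and which was not taken into account in comparing libraries.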

Other observations

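Edges of peaks recurred to the base between lists. Among the 307 control and 290 butyrate H3K27ac peaks of the windows 30 starts and 27 ends were shared, and 2 peaks had both. Shared edges were not counted outside the windows, so whether these numbers are particular to them is not known. The H3K27ac peaks of the windows were also closely spaced, with a median gap of 2760 bp in control and 2796 bp after butyrate in class IIb and of 2766 and 2768 bp in IIa-III-I, against 4273 and 4533 bp on the rest of chromosome 23. Gaps under 1 kb made up 39.2% and 39.6% in class IIb, 35.8% and 35.0% in IIa-III-I, and 30.9% and 32.1% on the rest.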
